A study of Mus musculus with 2 samples.

Results

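The *c-myb* gene encodes a transcription factor that keeps blood progenitors immature, and it lies on mouse chromosome 10 between genes of unrelated function. The genes described here are the 8 of its neighbors named Bclaf1, Pde7b, Ahi1, Hbs1l, Aldh8a1, Sgk1, Slc2a12 and Tbpl1. They were taken from the 22605 genes of the deposited table by name and chromosome, and the transcript with the most windows stood for each gene. The rule uses no measured value, but the genes were chosen with earlier results of these data known. Of their 29 listed transcripts, 8 were therefore used for the levels, and the others helped to divide the genes into stretches.

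M1 cells come from a myeloid leukemia of the mouse and resemble immature progenitors while they grow. Interleukin-6 (IL-6) makes these cells stop growing and differentiate toward macrophages. There was 1 library of untreated M1 cells (called M1) and 1 library of M1 cells kept with IL-6 (called M1+IL-6), for 4 to 5 days by the labels, both at passages 15 to 18. Neither library had a replicate, so no difference below has a replicate check and no p-value can be given.

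DNase I hypersensitive site sequencing (DHS-seq) begins with a light digestion of nuclei. The enzyme DNase I cuts open chromatin first, and short fragments cut at both ends are sequenced. Active promoters and enhancers are open over short stretches and give narrow peaks, while transcribed bodies and closed chromatin give a low and even signal. The table gives the mean signal over the 700-bp windows that a coding span, from start to stop codon, touches. It also gives the SD between those windows. Together they yield the reads behind each span, as well as limits for its strongest window. Signal is given below as reads per window, with 1 read of the M1+IL-6 library counted as 1.03816 reads. This scaling is inferred from the deposited values, and its origin is not given in the sources used here. Ranges after a mean or a ratio are exact 95% intervals that cover counting error only, and they compare these 2 libraries rather than the conditions. The counted spans held 8972180 reads in M1 and 8432474 in M1+IL-6 on chromosomes 1 to 19 and X. The median gene had 7.76 and 8.15 reads per window.

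Of the 9 myeloid marker genes, 8 were listed, and 7 of these had an M1 signal above the median gene (5 in M1+IL-6). The highest were Cebpa, with 46.5 reads per window in M1 and 15.1 in M1+IL-6, and Csf1r, with 26.2 and 14.8. The 8 listed genes ranged from 6.2 to 46.5 in M1, with a median of 10.0, and 5 of them were lower in M1+IL-6. Of 6 progenitor markers, 4 were above the median gene in M1 and 2 in M1+IL-6. Of 8 markers of other cell types, 3 were above it in M1 and 5 in M1+IL-6, and the heart gene Myh6 had 21.1 reads per window in M1. The levels of these lists thus overlapped, and DNase I signal over a coding span is not expression.

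On the NCBIM37 build, *c-myb* runs from 20844736 to 20880790 on the minus strand of chromosome 10, and distances below count from its transcription start site at 20880790. Positive distances point upstream of *c-myb*, which is the opposite of the sign used in the study, where upstream distances are negative. On the downstream side, Ahi1 starts at −208.4 kb, Pde7b at −435.9 kb and Bclaf1 at −848.5 kb. On the upstream side, Hbs1l starts at 135.0 kb, Aldh8a1 at 216.3 kb, Sgk1 at 721.2 kb, Slc2a12 at 1484 kb and Tbpl1 at 1571 kb. Slc2a12 and Tbpl1 overlap at their 3′ ends, but their coding spans share no window. The listed windows cover 43.9% of the windows within 1 Mb of *c-myb*, so most intergenic sequence is not analyzed here.

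Of the 8 genes, 1 (Aldh8a1) had at least 1.5-fold less signal in M1+IL-6 and 0 had as much more. For comparison, 18473 genes of the table passed a minimum of more than 21 reads in one library or the other, and 23.2% of them were lower and 10.8% higher by this measure. All 8 flanking genes passed that minimum. At 2-fold, 0 of the 8 were lower or higher, beside 13.4% and 1.71% of these genes. Their median log2 ratio was −0.00, beside 0.03 over all genes that passed, and 4 of the 8 were below 0, beside 48.3% of all genes that passed. The counting interval of the ratio lay below 1 for Ahi1 and Aldh8a1, above 1 for Pde7b, Sgk1 and Slc2a12, and held 1 for Hbs1l, Bclaf1 and Tbpl1. Within Ahi1 and Aldh8a1, however, single stretches differed between the libraries more than the whole span did, and within Sgk1 windows around the start sites differed in the opposite direction. Directions are relative to the scaling inferred from the deposited values. A median of ratios over strong windows would raise every log2 ratio by 1.83 and place all 8 genes above 0, while comparisons of stretches within a gene would stay as they are.

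**Figure D1:**
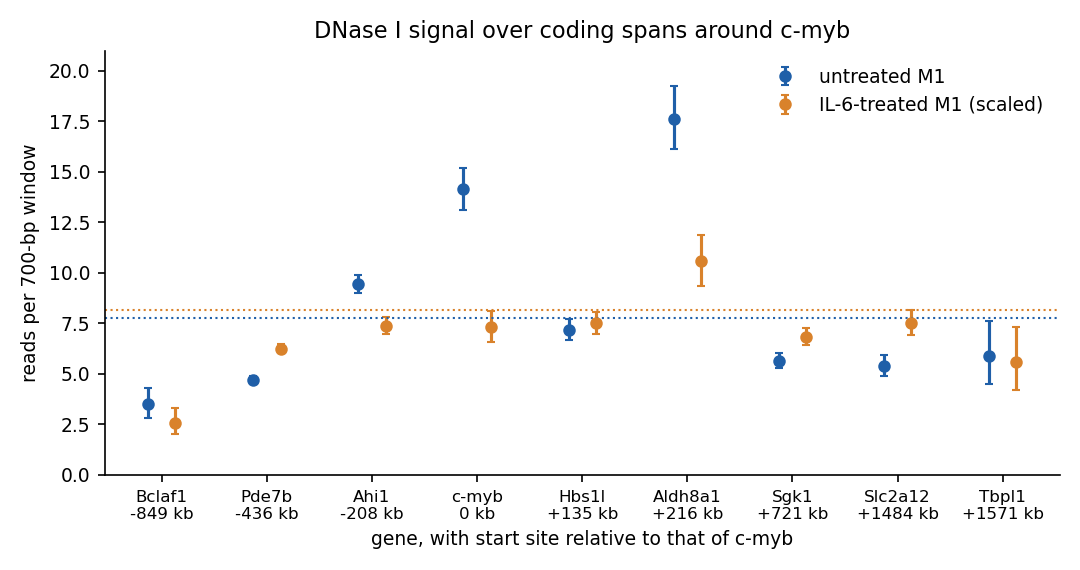
Mean DNase I signal over the coding span of each flanking gene and of *c-myb*, in reads per 700-bp window, in chromosome order. Points are 1 library each, bars are exact 95% Poisson intervals (counting error only), and dotted lines mark the median gene of each library. In M1, Aldh8a1 at 17.6 and Ahi1 at 9.44 stand above the median gene, and in M1+IL-6 only Aldh8a1 does, at 10.6.

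The 4 sequences below are promoters inside counted windows. The table resolves the window of the start site for the 2 Sgk1 promoters, but for Hbs1l and Aldh8a1 only a stretch of 22 and of 18 windows that holds it. Each is the 250 bases upstream of a RefSeq start site (GRCm38.p6 table), found once in NCBIM37 and placed there, and written 5′ to 3′ on the plus strand, on which all 3 genes are transcribed. Capitals mark matches on either strand to short motifs named for the proteins Sp1 and STAT and to the TATA box. The first sequence lies at chr10:21714222-21714471, directly upstream of the start of transcript Sgk1-001, and fits in 1 window that held 61 reads in M1 and 14 in M1+IL-6. The second lies at chr10:21713446-21713695, upstream of another Sgk1 start, in a window that held 29 and 6 reads. The third lies at chr10:21015535-21015784 upstream of Hbs1l, and the fourth at chr10:21096856-21097105 upstream of Aldh8a1.
Sgk1, 1st sequence: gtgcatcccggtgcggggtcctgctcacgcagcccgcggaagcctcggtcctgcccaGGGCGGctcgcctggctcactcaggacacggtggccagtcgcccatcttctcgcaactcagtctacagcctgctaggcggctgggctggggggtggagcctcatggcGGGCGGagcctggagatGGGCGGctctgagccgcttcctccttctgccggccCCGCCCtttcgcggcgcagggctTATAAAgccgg
Sgk1, 2nd sequence: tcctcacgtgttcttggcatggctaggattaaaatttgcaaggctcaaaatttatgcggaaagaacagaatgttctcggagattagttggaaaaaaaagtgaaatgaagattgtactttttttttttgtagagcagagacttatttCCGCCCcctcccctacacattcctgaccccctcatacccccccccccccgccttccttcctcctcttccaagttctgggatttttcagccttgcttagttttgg
Hbs1l: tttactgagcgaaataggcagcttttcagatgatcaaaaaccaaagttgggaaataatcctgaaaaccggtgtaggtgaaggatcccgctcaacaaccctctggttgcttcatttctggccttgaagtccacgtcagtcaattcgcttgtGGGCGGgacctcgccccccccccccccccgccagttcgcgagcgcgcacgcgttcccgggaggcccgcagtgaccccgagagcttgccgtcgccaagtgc
Aldh8a1: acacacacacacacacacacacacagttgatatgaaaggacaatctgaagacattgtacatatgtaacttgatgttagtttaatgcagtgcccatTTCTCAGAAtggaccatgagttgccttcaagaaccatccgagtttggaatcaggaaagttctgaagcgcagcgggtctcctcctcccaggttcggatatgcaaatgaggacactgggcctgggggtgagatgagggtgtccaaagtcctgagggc

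The Sp1 motif was searched as GGGCGG. The TATA box, bound by the TATA-binding protein at the start of transcription, was searched with the letters TATAAA. The STAT motif was searched as TTCNNNGAA, where N is any base. The motifs do not overlap one another in the sequences printed. The first Sgk1 promoter had a GC content of 70.4% and 22 CpG dinucleotides, and held 4 Sp1 motifs and 1 TATA box. The second had 44.8% GC and 5 CpG with 1 Sp1 motif. The Hbs1l promoter had 58.4% GC and 19 CpG with 1 Sp1 motif, and the Aldh8a1 promoter had 48.0% GC and 4 CpG with 1 STAT motif. STAT proteins carry the IL-6 signal to the nucleus. The medians over 32807 mouse promoters of the same length were 52.4% GC and 6 CpG. Of the 14 RefSeq promoters of the 8 genes, 6 held the Sp1 motif (32.7% of all promoters), 3 the STAT motif (7.02%), 3 the letters CCAAT (33.8%) and 2 the TATA box (12.4%). None of the 14 held the PU.1 motif, searched as GAGGAAGT and present in 2.44% of all promoters. The same holds for a Hoxa9 motif, searched as TTTATGG (2.43% of all promoters), and for a CREB motif, searched as TGACGTCA (1.55% of all promoters). Several of these promoters belong to 1 gene, so these are counts of sequences and not of genes.

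Ahi1 codes for jouberin, a protein of the primary cilium, and is the nearest gene on the downstream side. On NCBIM37 it spans chr10:20672391-20800234 on the plus strand, so that its 3′ end points toward the 3′ end of *c-myb*. Its 171 windows held 1614 reads in M1 and 1215 in M1+IL-6, or 9.44 and 7.38 reads per window. The ratio was 0.782 (0.725–0.842). The counted windows begin 7010 bp downstream of its start site, so its first promoter is not covered.

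The shorter Ahi1 transcripts divide the gene into 3 stretches. The 116 windows of the 5′ stretch held 916 and 733 reads, with a ratio of 0.831 (0.753–0.917). The next 43 windows, which hold the start of an internal transcript at 20760626, had 400 and 360 reads, with a ratio of 0.934 (0.808–1.08). The last 12 windows, at chr10:20790701-20799100, held 298 reads in M1 and 122 in M1+IL-6. They cover 3 of the 24 exons of the longest transcript and the introns between them.

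This 3′ stretch of Ahi1 lies from −90.1 to −81.7 kb of the *c-myb* start site, on the downstream side of *c-myb*. It had 24.8 reads per window in M1 against 10.6 in M1+IL-6, a ratio of 0.425 (0.341–0.526). Its strongest window in M1 had between 94 and 157 reads. In M1+IL-6 the strongest window, which need not be the same one, had between 17 and 34. The strongest M1 window alone therefore held a large part of the M1 reads of the stretch. Its exact place within the 12 windows is not resolved. Relative to the rest of Ahi1 the stretch changed 0.493-fold (0.390–0.620), a value that no common scaling of a library can alter. No start site of an Ahi1 transcript lies in it. This stretch was singled out after the values were seen. The 5′ stretch of Ahi1 changed 1.16-fold (0.993–1.35) relative to the rest of the gene, and that interval includes 1.

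Hbs1l encodes a translation factor that rescues stalled ribosomes together with Pelo, and its interval with *c-myb* holds known enhancers of *c-myb* in blood cells. Its position is chr10:21015785-21088695 on the plus strand, and its 104 windows include its start site. They held 747 reads in M1 and 752 in M1+IL-6, or 7.18 and 7.51 reads per window, and the ratio was 1.05 (0.943–1.16). The gene next to *c-myb* on the enhancer side thus had nearly equal signal in both libraries.

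Its signal was not spread alike, however. The 22 windows at the 5′ end held 217 and 172 reads, a ratio of 0.823 (0.670–1.01), and the other 82 windows held 530 and 580 reads, a ratio of 1.14 (1.01–1.28). The 5′ stretch changed 0.724-fold (0.570–0.920) relative to the rest of Hbs1l. The strongest window of the 5′ stretch had between 30 and 73 reads in M1. In M1+IL-6 the strongest window, which may be another one, had between 14 and 36.

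Aldh8a1 encodes an aldehyde dehydrogenase that acts in tryptophan breakdown and on retinal. The gene is at chr10:21097097-21116391 on the plus strand. It had the highest signal of the 8 genes in both libraries. Its 28 windows held 494 reads in M1 and 285 in M1+IL-6, or 17.6 and 10.6 reads per window, at the 81.6 and 65.8 percentile of all genes. The ratio was 0.599 (0.516–0.694).

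A large part of the Aldh8a1 signal in M1 sat in 1 window. Between 178 and 258 M1 reads fell in the strongest window, which is 36.0% to 52.2% of the reads of the gene. In M1+IL-6 the strongest window, which need not be the same one, had at least 22 and at most 55 reads, or 7.72% to 19.3%. The 18 windows of the 5′ stretch, which hold the start sites and 5 of the 7 exons of its longest transcript, had 430 and 210 reads, a ratio of 0.507 (0.428–0.599). In contrast, the 10 windows of the 3′ end had 64 and 75 reads, a ratio of 1.22 (0.860–1.73). The 5′ stretch changed 0.417-fold (0.282–0.615) relative to the 3′ end. Whether the strongest window is the start site window is not resolved.

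Pde7b encodes a cAMP-specific phosphodiesterase. It occupies chr10:20117810-20444884 on the minus strand and is the longest of the 8 genes. Its 464 windows held 2174 reads in M1 and 2790 in M1+IL-6, or 4.69 and 6.24 reads per window, both below the median gene. The ratio was 1.33 (1.26–1.41), and the M1+IL-6 signal was the higher one along most of the gene. From the 5′ end, the first 252 windows, with the start sites of 3 transcripts, had a ratio of 1.42 (1.31–1.53). The following 136 windows had 1.34 (1.21–1.49), the next 67 had 1.16 (1.01–1.33), and the last 9 windows, with 79 reads in each library, had 1.04 (0.750–1.44). The 5′ stretch changed 1.13-fold (1.01–1.26) relative to the rest.

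Sgk1 encodes a kinase that is induced by serum and glucocorticoids and acts in ion transport and survival. The annotation places it at chr10:21601990-21719709 on the plus strand, and 9 transcripts are listed. The longest covers 167 windows, with 942 reads in M1 and 1101 in M1+IL-6, or 5.64 and 6.84 reads per window. The ratio over the whole span was 1.21 (1.11–1.33). Most Sgk1 transcripts start near the 3′ end of this span, and their different start codons resolve the windows there.

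The 157 windows upstream of the short transcripts held 734 and 1016 reads, which is 4.68 and 6.72 reads per window and a ratio of 1.44 (1.31–1.58). The 6 windows at chr10:21711901-21716100, where most of the short transcripts start, behaved differently. They held 177 reads in M1 and 56 in M1+IL-6, or 29.5 and 9.69 reads per window, and their ratio was 0.328 (0.239–0.446). The following 4 windows had 31 and 29 reads, a ratio of 0.971 (0.565–1.67). One more annotated start, at 21716397, lies in the first pair of these, which had 18 and 17 reads and a ratio of 0.980 (0.475–2.02). The grouping into 6 and 4 windows was chosen after the values were seen.

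Along these 6 windows, the first pair had 20 and 26 reads in M1 against 13 and 16 in M1+IL-6, in either order within the pair. The third window had 29 reads against 6, a ratio of 0.215 (0.0729–0.527). The fourth, which holds the GC-rich promoter shown above and the Sgk1-001 start at 21714472, had 61 against 14, a ratio of 0.238 (0.123–0.431). It was the highest single window resolved in the 8 genes. The last pair had 16 and 25 reads against 3 and 4, a ratio of 0.177 (0.0671–0.399), and covers 5 exons of the longest transcript. In M1+IL-6 the third window and the last pair were thus near or below the 6.72 reads per window of the upstream stretch.

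Relative to the rest of Sgk1, the 6 windows changed 0.232-fold (0.166–0.320). At the 5′ end of *c-myb*, 6 windows that hold its start site had 187 reads in M1 and 55 in M1+IL-6, a ratio of 0.305 (0.222–0.414). The ratio at the Sgk1 start windows was 1.08 times (0.687–1.68) that at *c-myb*, and the interval includes 1. That interval is wide, and the 6 Sgk1 windows were grouped after their values were seen, so likeness to *c-myb* is not shown. Single windows with more than 21 reads in at least one of the libraries numbered 1062 in the series, of which 64.7% were lower in M1+IL-6 by 1.5-fold or more and 10.4% were higher by as much. Longer stretches with as many reads numbered 30262, of which 18.8% were lower and 12.9% higher. Of the 6 Sgk1 windows, only those with 29 and 61 M1 reads were resolved singly, and most strong single windows shared their lower signal. The other windows were resolved only within longer stretches, and most longer stretches were not lower by as much. Among all stretches with as many reads and a mean over both libraries above 10 reads per window, 37.4% were lower.

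**Figure D2:**
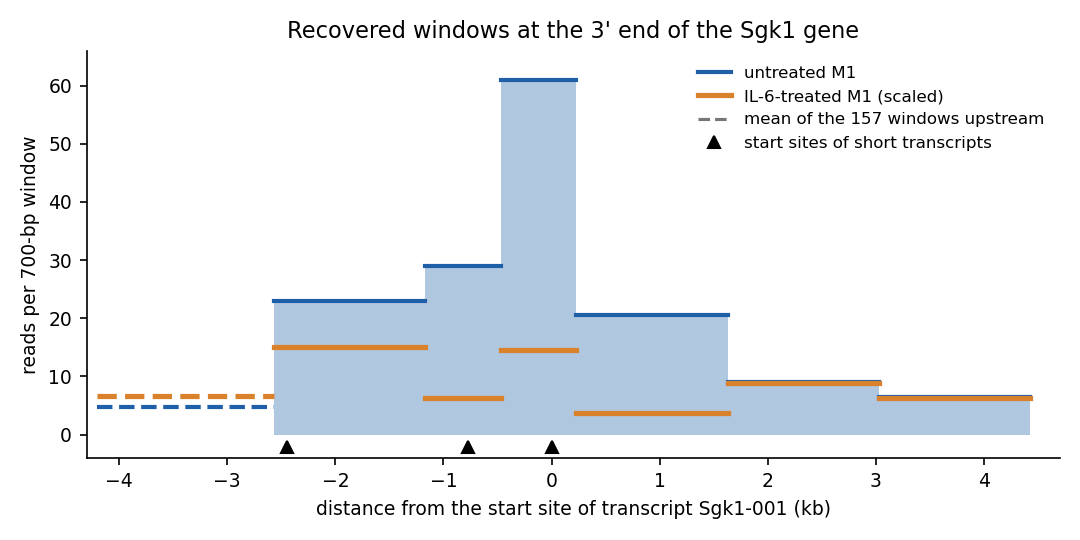
DNase I signal in reads per 700-bp window at the 3′ end of Sgk1, against the distance in kb from the start site of transcript Sgk1-001. Steps are recovered windows or means of a pair of windows, dashed lines are the mean of the 157 windows upstream, and triangles are start sites with a RefSeq promoter. The M1 peak of 61 reads lies on the Sgk1-001 start, where M1+IL-6 has 14.5 scaled reads, and the last 4 windows are nearly equal.

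Bclaf1 encodes a nuclear protein of RNA processing and apoptosis. Its coordinates are chr10:20032275-20062307 on the plus strand and had the lowest signal of the 8 genes. Its 26 windows held 91 reads in M1 and 65 in M1+IL-6, or 3.50 and 2.60 reads per window. The ratio was 0.742 (0.531–1.03). No window had more than 9 reads in M1 or 8 in M1+IL-6, and its 3 stretches had ratios of 0.654, 0.716 and 0.831, each with an interval that holds 1. The counted windows begin 9426 bp from its start site, so that its promoter is not covered. The span has a GC content of 36.8%, the lowest of the 8 genes, and 96.3% of its 32-bp sequences are unique in the genome.

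Slc2a12 encodes the glucose transporter GLUT12. It is found at chr10:22364817-22424091 on the plus strand and has 1 listed transcript, so no stretch can be separated. Its 82 windows held 443 reads in M1 and 596 in M1+IL-6, or 5.40 and 7.55 reads per window. With a ratio of 1.40 (1.23–1.58) it had the highest ratio of the 8 genes. Its windows begin 184 bp downstream of the start site.

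Tbpl1 encodes a relative of the TATA-binding protein that acts in spermatogenesis. The gene extends over chr10:22423685-22451744 on the minus strand. Its 10 windows held 59 reads in M1 and 54 in M1+IL-6, or 5.90 and 5.61 reads per window. The ratio was 0.950 (0.645–1.40). They begin 19544 bp from its start site, and no window had more than 21 reads in M1. At this depth a difference of the size seen in Ahi1 was not detectable in Tbpl1 or Bclaf1.

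In M1 the order of signal per window was Aldh8a1, Ahi1, Hbs1l, Tbpl1, Sgk1, Slc2a12, Pde7b and Bclaf1, over a 5.04-fold range. The counting intervals of Hbs1l and Tbpl1, of Tbpl1 and Sgk1, and of Sgk1 and Slc2a12 overlapped. In M1+IL-6 the order was Aldh8a1, Slc2a12, Hbs1l, Ahi1, Sgk1, Pde7b, Tbpl1 and Bclaf1, over a 4.07-fold range. There, only the first and the last gene were separated from their neighbor in the order, and all 6 between them overlapped step by step.

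With distance from *c-myb*, the 3 genes that start within 250 kb (Hbs1l, Ahi1 and Aldh8a1) were the 3 highest in M1. Their lowest mean was 7.18 reads per window, against a highest mean of 5.90 among the 5 farther genes. These means belong to Hbs1l and Tbpl1, whose counting intervals overlapped, so the groups were not separated beyond counting error. In M1+IL-6 the groups overlapped, with a lowest mean of 7.38 among the near genes and a highest mean of 7.55 among the farther genes. This limit was chosen after the values were seen. With distance measured between start sites, Spearman's rho with mean signal was −0.55 in M1 and −0.45 in M1+IL-6. With log2 ratio it was 0.24, over 8 genes that share both libraries and 1 chromosome.

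**Figure D3:**
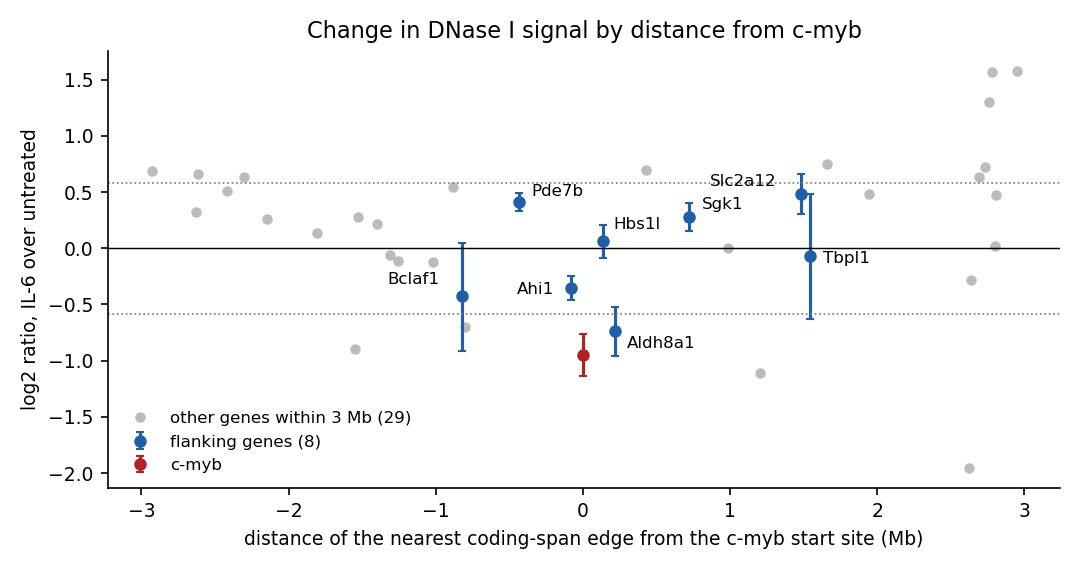
Log2 ratio of DNase I signal, M1+IL-6 over M1, against the distance in Mb of the nearest coding-span edge from the *c-myb* start site. Bars are exact 95% intervals (counting error only), gray points are the 29 other genes within 3 Mb that passed the read minimum, and dotted lines mark 1.5-fold. Aldh8a1 at −0.74 and *c-myb* at −0.95 are the lowest within 0.5 Mb, while Pde7b, Sgk1 and Slc2a12 lie between 0.28 and 0.48.

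The same comparison was made for the other genes nearby. Of 47 other listed genes within 3 Mb of *c-myb*, 29 passed the read minimum. A difference of 1.5-fold or more was found downward in 4 and upward in 10 of these, beside 23.2% and 10.8% of all genes. Their median log2 ratio was 0.32, with 20 above 0 and 9 below. The ribosomal protein gene Rps12 had both the most M1 signal and the lowest ratio, with 400 reads in M1 and 99 in M1+IL-6 over 4 windows, a ratio of 0.257 (0.204–0.321). Next in M1 signal were Olig3, with 17.5 and 19.2 reads per window, and Taar4, with 14.7 and 14.9. Raet1d had the next lowest ratio, 0.454 (0.224–0.876), but only 18.7% of its 32-bp sequences are unique. The highest ratios were those of the trace amine receptor genes Taar9, with 8 and 24 reads (3.11, 1.35–8.02), and Taar2, with 20 and 58 reads (3.01, 1.78–5.28). Both passed the read minimum through M1+IL-6 alone, as did some of the other genes counted upward, while Raet1d passed it through M1 alone. For these genes the minimum favored the direction seen. With distance measured to the nearest coding-span edge, Spearman's rho over these 29 genes was 0.46 with log2 ratio and −0.18 with M1 signal. By the same distance it was 0.29 and −0.57 over the 8 flanking genes. Taar2, Taar9 and other trace amine receptor genes that passed through M1+IL-6 alone lie near the 3 Mb limit. The read minimum therefore also favored a positive rho with log2 ratio over the 29 genes, and its share in that value was not tested.

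Set against *c-myb* itself, all 8 genes had the higher ratio. Most genes would too, because only about 14.4% of those that passed the read minimum ranked lower than *c-myb* by log2 ratio. The count of 8 is therefore not particular to the flanking genes. The span of *c-myb* held 721 reads in M1 and 360 in M1+IL-6, a ratio of 0.518. The ratios of Slc2a12, Pde7b, Sgk1 and Hbs1l were 2.69 times (2.25–3.23), 2.57 times (2.23–2.96), 2.34 times (2.00–2.74) and 2.02 times (1.71–2.38) that of *c-myb*. Tbpl1 had 1.83 times (1.22–2.76) and Ahi1 1.51 times (1.30–1.75). For Bclaf1 at 1.43 times (0.998–2.04) and Aldh8a1 at 1.16 times (0.948–1.41) the interval includes 1. A common scaling of a library does not alter these values.

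Unevenness along a span can be measured by the variance between windows over their mean, which is near 1 where reads fall evenly and grows with peaks. It was lower in M1+IL-6 for 7 of the 8 genes. Aldh8a1 went from 127 to 8.26, Ahi1 from 24.4 to 5.75, Sgk1 from 10.7 to 3.24 and Hbs1l from 8.48 to 3.27. Pde7b, Slc2a12 and Tbpl1 went from 6.74 to 4.35, from 5.73 to 4.72 and from 5.33 to 1.86, and Bclaf1 from 1.08 to 1.80. Over 13557 genes with at least 10 windows the median was 7.24 in M1 and 3.93 in M1+IL-6, and 75.1% were lower in M1+IL-6. The flanking genes thus differed in the same direction as most genes. A window of more than 21 reads was certain in Aldh8a1, Ahi1, Sgk1 and Hbs1l in M1, and only in Aldh8a1 in M1+IL-6. The share of all genes with such a window is not given here, so this is a description of these genes only.

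**Figure D4:**
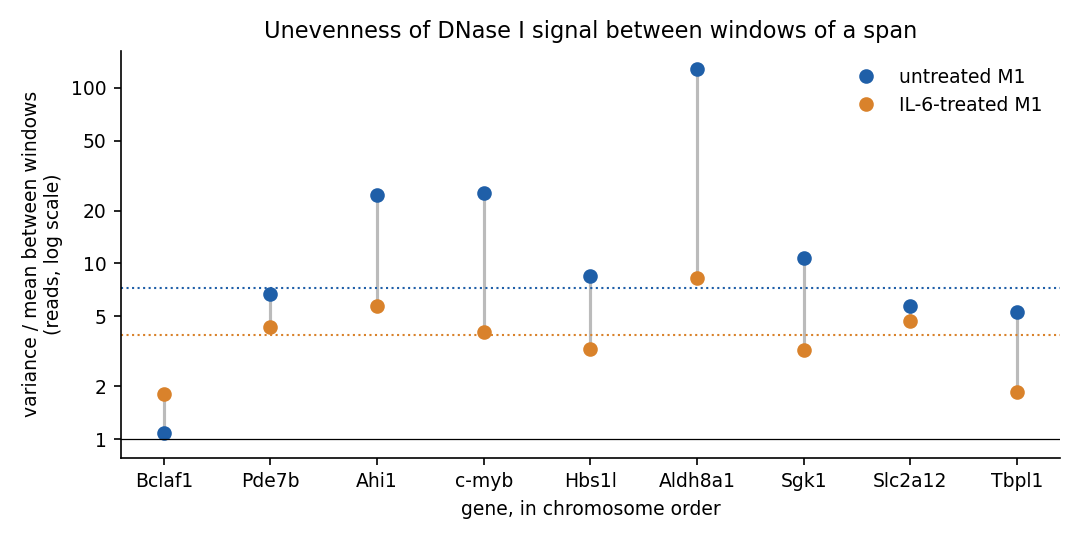
Variance over mean of the reads between 700-bp windows (log scale) for each flanking gene and *c-myb*, in chromosome order. Blue points are M1, orange points are M1+IL-6, dotted lines are the medians of 13557 genes in each library, and the black line at 1 is the value of evenly scattered reads. Aldh8a1 falls from 127 to 8.26, and only Bclaf1 is higher in M1+IL-6.

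The listed transcripts divide the 8 genes into 24 stretches, of which 21 passed the minimum of more than 21 reads. The mean of both libraries was above 10 reads per window in 6 of these, namely 4 of Sgk1 and 1 each of Ahi1 and Aldh8a1. All 6 were at least 1.5-fold lower in M1+IL-6, beside 37.4% of 14290 such stretches in the series, of which 6.9% were higher. Together, these 36 windows went from 905 reads in M1 to 388 in M1+IL-6. Of the other 15 stretches, 1 (the 5′ stretch of Bclaf1) was at least 1.5-fold lower and 0 were higher, beside 5.98% and 17.8% of 17034 such stretches. Their 1011 windows went from 5627 to 6435 reads. The Sgk1 stretches with 29, 61 and 41 M1 reads had 6.23, 14.5 and 7.27 scaled reads in M1+IL-6, so they passed the minimum through M1 alone. The 5′ stretch of Bclaf1 did so too, and for these stretches the minimum favored a lower ratio. The limit of 10 was chosen after the values were seen, and stretches of 1 gene are not independent.

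**Figure D5:**
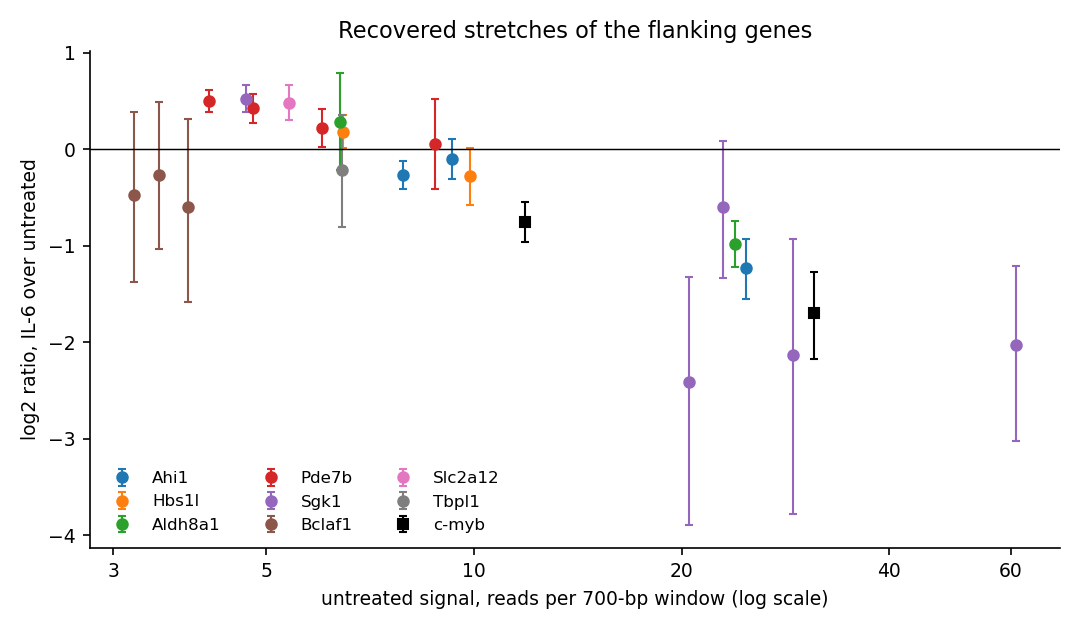
Log2 ratio, M1+IL-6 over M1, of the recovered stretches of the 8 genes that passed the read minimum, against their M1 signal in reads per 700-bp window (log scale). Bars are exact 95% intervals (counting error only), and black squares are the 2 stretches of *c-myb*. M1 enters both axes. The stretches above 20 reads per window all lie below 0, and those of Pde7b, Slc2a12 and the long Sgk1 stretch lie above 0.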

How the data were processed

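The members and gene lists were chosen with earlier results of these data known. The deposited table holds, for each of 55432 transcripts, the mean signal and its SD over the 700-bp windows that the coding span touches. The authors used BWA to align reads to NCBIM37 and Seqmonk to make this table. Versions, duplicate removal and the origin of the scaling are not given in the sources used here, and the methods and a figure legend differ on single-read or paired-end sequencing. Multiplied by the number of windows, 100% of means were whole numbers of reads within 0.05, with 1 read worth 1.0 in M1 and 1.03816 in M1+IL-6. Differences between nested transcripts gave the reads of stretches, and mean and SD gave limits for the strongest window. This was tested on simulated data. The 5′ stretch of a gene is the first one so separated.

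With 1 library per group, no test was made. Ratios have Clopper-Pearson 95% intervals, means exact Poisson intervals, and ratios of ratios exact conditional intervals. Log2 ratios add 0.5 reads. A call was a 1.5-fold difference with more than 21 reads in either library. Genes named are the 8 members and *c-myb*, and of the other genes within 3 Mb the 3 with most M1 signal and the 2 with the largest change each way, plus fixed lists of relatives and cell type markers. The marker genes given with values and the relatives given first were chosen after their values were seen. Alternatives covered scaling, reads added, transcript, fold, filter, distance and neighborhood. Python 3.11.15 with numpy 2.4.6, pandas 2.3.3, scipy 1.17.1 and matplotlib 3.10.9 was used. The intervals between genes and the ChIP, 4C and expression experiments are not analyzed here. The values of 1 listed gene are not reported here.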

Additional observations from a re-analysis of the deposited data

How the results depend on the processing

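The scaling between the libraries moved every value, and the transcript chosen moved Sgk1 further still and turned its direction. A median of ratios over single windows of 22 or more reads in each library shifted log2 ratios by 1.83, which turned all 8 genes higher. The log2 ratios became 1.47 for Ahi1, 1.89 for Hbs1l, 1.09 for Aldh8a1, 2.24 for Pde7b, 2.11 for Sgk1, 1.40 for Bclaf1, 2.31 for Slc2a12 and 1.75 for Tbpl1, with a median of 1.82, so that 0 genes were lower and 8 higher, beside 0.379% and 91.7% of all genes. The 5′ stretches became 1.56 for Ahi1, 1.55 for Hbs1l, 0.85 for Aldh8a1, 2.33 for Pde7b, 2.35 for Sgk1, 1.23 for Bclaf1 and 1.61 for Tbpl1, and of the other genes within 3 Mb 0 were lower and 42 higher. This scaling also lets more of those genes pass the read minimum, 43 in place of 29, and among the 29 it placed 0 lower and 28 higher. No scaling, totals over coding spans and totals of chromosome 10 shifted log2 ratios by −0.05, 0.04 and 0.04. The transcript with the highest M1 mean, a choice that favors lower ratios, gave −0.48 for Ahi1, −0.28 for Hbs1l, −0.98 for Aldh8a1, 0.33 for Pde7b and −1.60 for Sgk1, with a median of −0.38 and 3 genes lower. The transcript with the fewest windows gave −0.48, −0.28, −0.98 and −2.41 for Ahi1, Hbs1l, Aldh8a1 and Sgk1, with the same median of −0.38 and 3 lower. For neither transcript choice is the share of all genes given here, so these counts cannot be read as particular to the flanking genes. At 2-fold, 0 flanking genes and 2 of the other genes were lower and 3 other genes higher. Within 1 Mb, 7 other genes are listed, but most of them did not pass the read minimum. Of those that passed, 1 was lower and 1 higher, beside 23.2% and 10.8% of all genes. The other 94 of 132 alternative values moved by less than their counting error, or, for counts of genes, by at most 1.5 times. Measured to the nearest edge, Ahi1 and Hbs1l change places in distance. No paired analysis was possible because each group has 1 library. Depth limits Bclaf1 and Tbpl1, and the precision between cultures is unknown.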

Other observations

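Relatives and partners of the flanking genes elsewhere in the genome were read in the same way. Of 23 such genes, 22 passed the read minimum. Of these, 5 were lower in M1+IL-6 by 1.5-fold or more and 0 higher, beside 23.2% and 10.8% of all genes. Their median log2 ratio was −0.13, and 11 of the 23 were above the median gene in M1. Pelo, which encodes the partner of Hbs1l in ribosome rescue, had 175 reads in M1 and 47 in M1+IL-6 over 3 windows, a ratio of 0.279 (0.198–0.387), while Hbs1l had a ratio of 1.05. The release factor gene Gspt1 had 745 and 308 reads (0.429, 0.375–0.491), the elongation factor gene Eef1a1 40 and 18 (0.467, 0.252–0.834) and the glucose transporter gene Slc2a6 288 and 170 (0.613, 0.504–0.743).

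Nearest relatives of the 8 genes did not all have the direction of the flanking gene. Pde7a had a ratio of 0.784 (0.726–0.847) where Pde7b had 1.33, while the phosphodiesterase genes Pde8a and Pde8b had 1.40 (1.29–1.52) and 1.44 (1.35–1.53). Sgk3 had 0.807 (0.690–0.944) and Sgk2 had 1.22 (1.02–1.47), beside 1.21 for the whole span of Sgk1. Slc2a10 had 1.03 (0.835–1.26), beside 1.40 for Slc2a12. Aldh1a2 had 1.37 (1.247–1.499), Aldh1a1 had 1.41 (1.16–1.73) and Aldh1a3 had 0.922 (0.819–1.04), beside 0.599 for Aldh8a1. Thrap3, a relative of Bclaf1, had 1.01 (0.780–1.30), and Tbp had 0.906 (0.674–1.22). These genes differ in the number of windows and in whether a start site is covered, which was not matched.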
